A study of Homo sapiens with 6 samples.

Results

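Readthrough genes are annotated where transcription runs past the end of one gene into a neighbour on the same strand, so that the exons of both are joined in a single RNA. The genes described here are the rows of the deposited gene table whose description holds the word readthrough. They number 178 of 46427 genes, and 95 are annotated as protein coding, 66 as lncRNA, and 17 as transcribed pseudogenes. The description of 41 members adds that the RNA is a candidate for nonsense-mediated decay (NMD), the pathway that removes RNAs with an early stop codon. IQCJ-SCHIP1-AS1 is a member by its wording only, since it is annotated as an antisense RNA of such a locus.

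RNA-seq was performed on 6 libraries from 3 NSCLC cell lines (H460, H1299, A549), with 1 control library and 1 library of cells transfected with siRNA against the lncRNA MALAT1 (si-MALAT1) per cell line. The labels call the controls non-treated, whereas the methods of the study describe both negative controls and cells given a control siRNA with Lipofectamine RNAiMAX and do not say which were sequenced. Each cell line was measured once per condition, so no test was made within a cell line, and the spread given below is that between the 3 cell lines. The libraries held 42506818 to 68515992 counted reads, and the MALAT1 count was lower in each si-MALAT1 library than in its control, with log2 fold changes of -2.32 for H460, -2.96 for H1299, and -2.84 for A549. Epithelial markers were detected in every library with summed TPM of 458 to 4728, and none of the 5 was at 0. KRT8 and KRT18 had at least 11408 reads in every library. In H460 and H1299, however, CDH1 had only 2 to 13 reads and EPCAM 23 to 73, and KRT19 had 17 to 121 reads in H1299 and A549. Of the 4 lung lineage markers, 2 or 3 were at 0 in each library and their summed TPM was at most 1.95. Summed TPM of the 3 endothelial markers was at most 0.0956, that of the 5 fibroblast markers 0.301 to 7.41, and that of the 4 leukocyte markers 9.40 to 47.5. In each library, 2 or 3 of the leukocyte markers were at 0, and CD68 held between 624 and 4045 reads.

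RNA polymerase II normally ends an mRNA after the cleavage and polyadenylation machinery has cut the transcript at a poly(A) signal. When this step is passed over, the upstream gene's last exon can be skipped and its preceding exon spliced to the downstream gene. Such an RNA may encode a fused protein, or may carry a premature stop codon and be degraded. Since nearly all of its sequence is also in the parent genes, only reads across the joining splice junction, or in the few bases of its own, belong to it alone.

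The joining junctions of members described below are shown because they are the sequences that set the readthrough RNA apart from its parents. Each line gives 30 bases of exon sequence, 5′ to 3′, from the GRCh38 genome at the junctions of the deposited annotation, with the upstream parent's exon in lower case and the downstream parent's exon in capitals.
ABHD14A-ACY1: cccttgaccttccagCTCACCACGCGCAGC
RPL36A-HNRNPH2: gataagaagagaaagCTACACCAAAATTGC
COMMD3-BMI1: atggaacaattacagGATTTTTTATCAAGC
POC1B-GALNT4: acggcaagcaacttgGAAAGGGACAGGCGG
SERF2-C15ORF63: cgcccgcaagcagagCTTCTAGAACTGGAG
BLOC1S5-TXNDC5: caggaacgaaaaaagGTGTGGACACTGCCA
NME1-NME2: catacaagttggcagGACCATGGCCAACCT
JMJD7-PLA2G4B: gaggccatggagaagGCAGAGGTGTCCAGG
TSNAX-DISC1: aaagaaaataaaactGCAGCCGGGATTGCT
RTEL1-TNFRSF6B: ctggccagagccccaCAAGGACCATGAGGG
The introns removed at these junctions are chr3:51978375-51984046 (plus strand), chrX:101395458-101411935 (plus), chr10:22319019-22326430 (plus), chr12:89523674-89525119 (minus), chr15:43793084-43800494 (plus), chr6:7904724-8026366 (minus), chr17:51161273-51166826 (plus), chr15:41836552-41840157 (plus), chr1:231561256-231693825 (plus), and chr20:63695855-63696759 (plus), in the order of the lines. They span from 905 bases at RTEL1-TNFRSF6B to 132570 bases at TSNAX-DISC1. The junction lies inside the annotated coding sequence for ABHD14A-ACY1, RPL36A-HNRNPH2, COMMD3-BMI1, POC1B-GALNT4, NME1-NME2, and JMJD7-PLA2G4B, and not for the other members shown.

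Most members had little sequence of their own. Of the 178, 53 had no exonic base outside the exons of other genes on the same strand, 124 had under 10% of such bases, and the median was 3.31%. Only 13 had over 50%. An intron joining an exon of one parent to an exon of another was annotated in 126 members, and in each of them at least 1 such intron was found in no other gene. In 74 members it lay inside the coding sequence. All named parents were found at the locus for 163 members, some for 10, and none for 5. The uniqueness differed between the classes of member, with a median of 0.368% of bases in protein-coding members, 6.38% in lncRNAs, and 24.98% in transcribed pseudogenes.

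**Figure D1:**
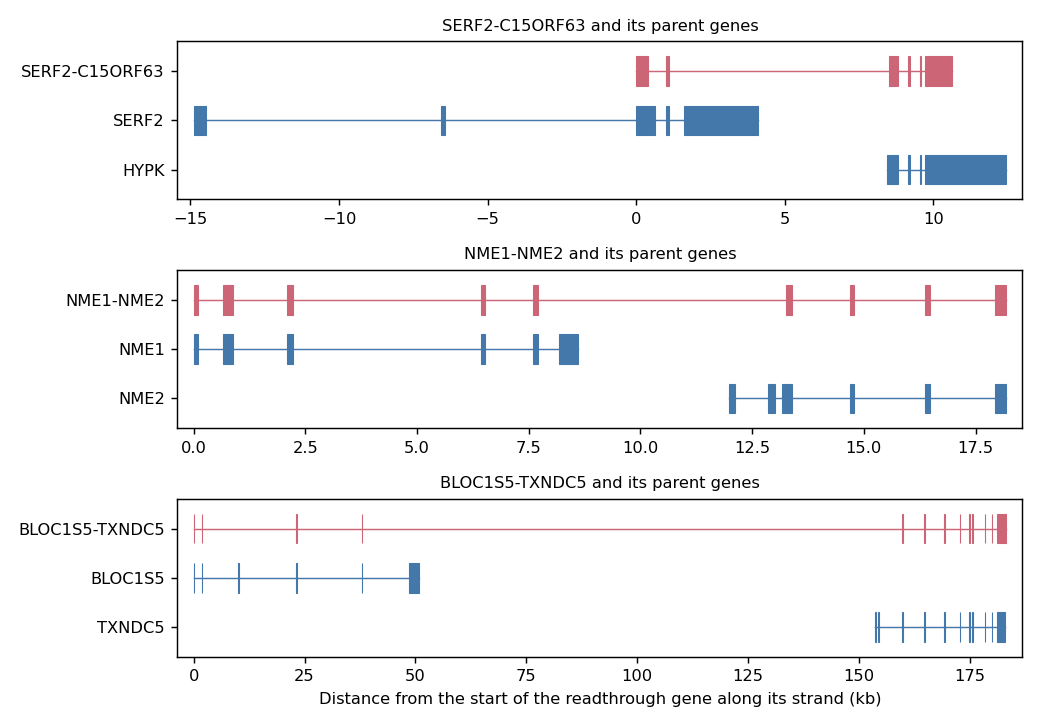
Annotated exons (boxes) of SERF2-C15ORF63, NME1-NME2, and BLOC1S5-TXNDC5 (red) and of their parent genes (blue), drawn to scale in kb from the start of the readthrough gene along its strand. In each readthrough gene the last exon of the upstream parent is missing, and for SERF2-C15ORF63 and NME1-NME2 none of the exonic bases lies outside other genes.

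Readthrough genes were a small part of each library. Their summed reads were 0.0866% to 0.110% of all counted reads, and 135 to 148 of them had at least 1 read in a library. No read was counted for 11 members in any library, 55 had reads in some libraries only, and 112 had reads in all 6. A mean count of at least 50 was reached by 106. For the 146 members with all parents at the locus and reads to compare, the share of the locus reads (readthrough gene plus parents) that was counted for the readthrough gene had a median of 4.56% over members and quartiles of 1.38% and 18.7%. The share was under 5% in 76 members and over 50% in 12. Fewer cells with an RNA and less of it per cell cannot be told apart in these bulk libraries.

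The study states its threshold both as 1.5-fold and as an absolute log2 fold change of 1.5, and both are used below. Within each cell line, a larger share of readthrough genes than of all genes was past the log2 threshold of 1.5. Log2 fold changes here compare si-MALAT1 with its control on log2(RLE-scaled count + 1), for genes with a read in all 6 libraries. In H460, 9 of 112 members were past it with higher counts after si-MALAT1 (1.3% of all genes) and 11 with lower counts (1.46% of all genes). In H1299, 11 were higher (1% of all genes) and 9 lower (1.18% of all genes). In A549, 12 were higher (1.68% of all genes) and 4 lower (1.68% of all genes). In either direction these are 17.9% of the members in H460, 17.9% for H1299, and 14.3% for A549, beside 2.76%, 2.18%, and 3.36% of the 17834 genes. Of the 112 members, 60 were lower and 52 higher for H460, 65 and 47 for H1299, and 59 and 53 for A549. The same count over all genes was not made. The members' median log2 fold change was -0.12 for H460, -0.15 for H1299, and -0.04 for A549, beside 0.02, 0.02, and 0.01 for all genes. At a fold change of 1.5, 24 members were higher and 26 lower in H460 (9.50% and 10.3% of all genes), 25 higher and 28 lower in H1299 (11.7% and 11.4%), and 29 higher and 24 lower in A549 (11.5% and 11.4%). In either direction these were 50 members (19.8% of all genes), 53 (23.1% of all genes), and 53 (22.9% of all genes).

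The share of members past the threshold differed with their read counts. At least 1 cell line was past a log2 fold change of 1.5 in 40 of 112 members, beside 7.28% of all genes, and in 30 of the 94 with a mean count of at least 50, beside 3.3% of such genes. Among members with a mean count of 50 to 200, 16 of 37 were past it, beside 10.8% of genes in that range. At 200 to 1000 reads the number was 14 of 43, beside 3.64% of genes. Of the 14 members with a mean count of at least 1000, 0 were past it, beside 1.18% of genes. The log2 fold changes of these 14 ranged from -0.87 for TMED7-TICAM2 for A549 to 1.05 for ANKHD1-EIF4EBP3 for A549.

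**Figure D2:**
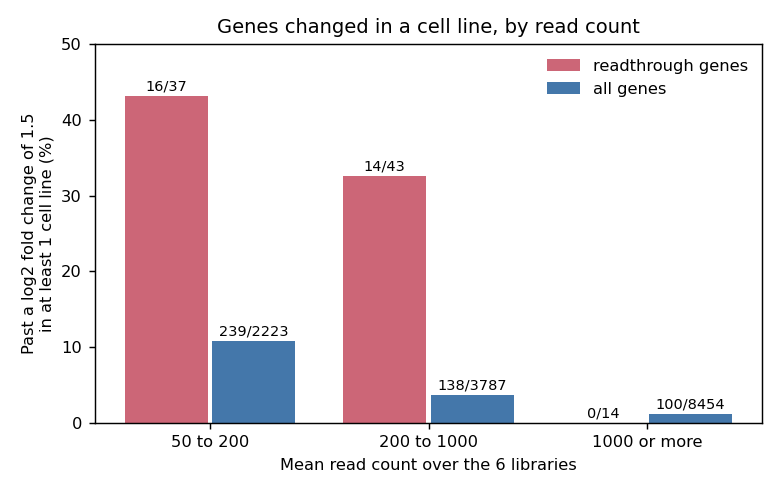
Percent of readthrough genes (red) and of all genes (blue) past an absolute log2 fold change of 1.5 in at least 1 cell line, by mean read count over the 6 libraries, with the numbers of genes above the bars. Readthrough genes stand at 43.2% and 32.6% in the lower count ranges, and at 0 of 14 in the highest.

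For most members the direction differed between the cell lines. All 3 log2 fold changes had the same sign in 36 of 112 members (32.1%), beside 40.2% of all genes. The SD of the log2 fold change over the 3 cell lines had a median of 0.66 over members, 0.28 over all genes, and 0.23 over the members' summed parents. At matched counts the medians were 0.68 for members and 0.45 for all genes at 50 to 200 reads, 0.69 and 0.28 at 200 to 1000, and 0.34 and 0.20 at 1000 or more, so that the gap was smaller in ratio at 50 to 200 and at 1000 or more reads. The median SD was 0.71 in the 24 members without a base of their own and 0.73 in the 49 with up to 10%, but 0.36 in the 39 with more. Past the log2 threshold in at least 1 cell line were 14 of 24, 19 of 49, and 7 of 39 of these members. Their read counts differed too, with median mean counts of 118, 174, and 343, and the part of depth in this difference was not tested. Likewise, the median SD was 0.84 in the 19 members with under 2% of their locus reads, 0.94 in the 39 with 2% to 10%, and 0.41 in the 52 with 10% or more, where the median mean counts were 35.2, 112, and 442. Members with only some parents found are included in these classes, and their share leaves out the missing parents.

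Whole loci differed far less than the readthrough genes in them. For 102 members with all parents at the locus and reads in all 6 libraries, the absolute log2 fold change had a median of 0.55, 0.54, and 0.56 for the readthrough gene in H460, H1299, and A549. For the locus total it was 0.20, 0.21, and 0.16. Past a log2 fold change of 1.5 were 20, 19, and 16 of the readthrough genes, and 0 of the locus totals and 0 of the parent sums in any cell line. Read depth differed too. Among genes with reads in all 6 libraries, the median mean count was 219 for members and 1029 for single parent genes. The part of depth in this difference was not tested. The readthrough gene moved in the same direction as its summed parents in 52, 46, and 48 of the 102 members. Across the 102 members, Spearman's rho between both log2 fold changes was 0.00 for H460, -0.17 for H1299, and -0.16 for A549, where the points of a cell line share its 2 libraries and each pair shares reads. The most distant member was ATP6V1G2-DDX39B, named after its values were seen, which had 21 reads without and 1215 with si-MALAT1 for H460. DDX39B, an RNA helicase of mRNA export, held 7163 and 5819 reads in these libraries, and the locus had a log2 fold change of 0.05. CZ1P-ASNS, for which only the parent ASNS was found in the table, is the contrary case, also named after its values were seen. In H1299 its count was 790 in the control and 38 after si-MALAT1, that of ASNS, which makes asparagine, was 10841 and 3244, and the locus had a log2 fold change of -1.69.

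**Figure D3:**
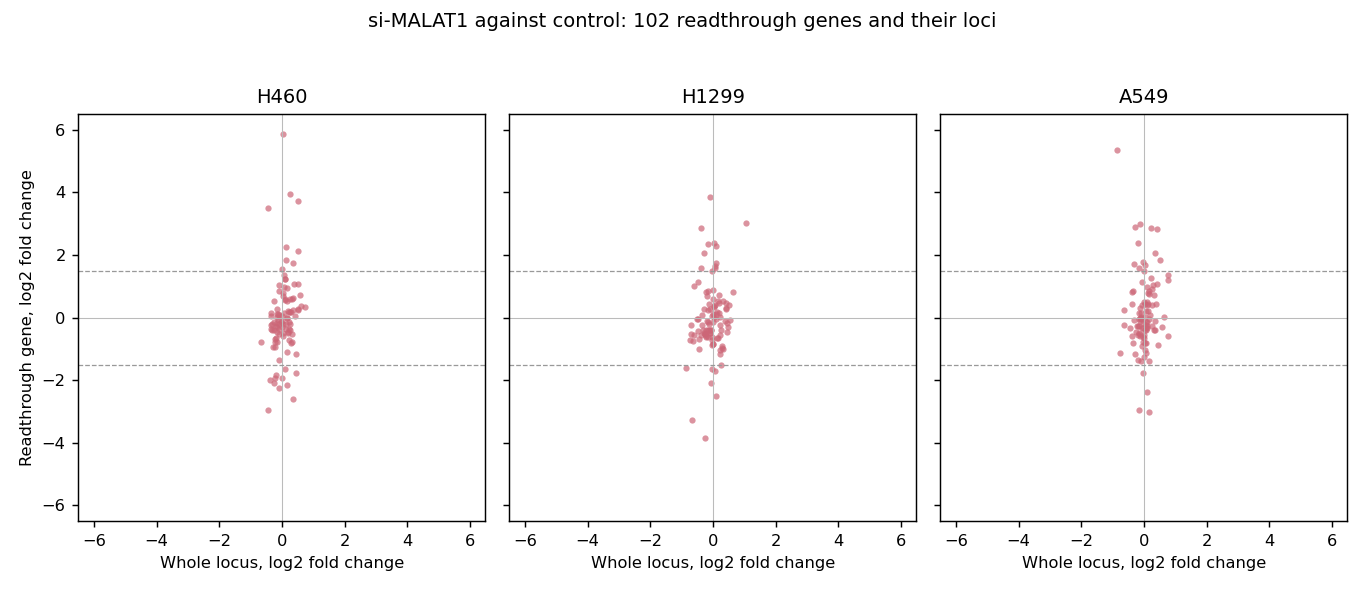
Log2 fold change (si-MALAT1 against control) of each of 102 readthrough genes on the vertical axis and of its whole locus, readthrough gene plus parents, on the horizontal axis, in 1 panel per cell line, with dashed lines at 1.5 and -1.5. The points spread along the vertical axis, where 20, 19, and 16 lie past a dashed line, and 0 loci lie past 1.5 on the horizontal axis.

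Where a parent differed strongly, its readthrough gene often had the opposite sign. Of the 252 parent genes with reads in all 6 libraries, 6 (2.38%) were past a log2 fold change of 1.5 for H460, 7 (2.78%) in H1299, and 9 (3.57%) in A549, beside 2.76%, 2.18%, and 3.36% of all genes. In 15 of these 22 cases the readthrough gene had the opposite sign, in 6 the same sign, and in 1 no reads. Over the 102 members above, the sign was that of the summed parents in 52, 46, and 48. Small changes are counted too, such as 0.05 for PIR-FIGF in H460 (opposite) and -0.03 for STAG3L5P-PVRIG2P-PILRB in A549 (same). Some parents had few reads, as KPNA2P3 with 14 and 2 for A549. The following were named after their values were seen. At TVP23C-CDRT4 for H460, CDRT4 had 745 reads in the control and 6 after si-MALAT1, and the readthrough gene had 51 and 551. At JMJD7-PLA2G4B in H1299, PLA2G4B, a cytosolic phospholipase A2, had 85 and 350 reads and the readthrough gene 726 and 232. At MSANTD3-TMEFF1 for A549, TMEFF1 had 22 and 169 reads and the readthrough gene 470 and 234. In each of them a parent gained or lost reads where the readthrough gene did the reverse, while none of the 3 locus totals was past 1.5.

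Counts that were present in one library of a cell line and listed at 0 in the other made up a larger share of readthrough genes than of all genes. This rule, at least 50 reads in one library and 0 in the other, was set after the values were seen. It was met in at least 1 cell line by 14 of 130 members with 50 reads in some library (10.8%), beside 0.183% of the 18021 genes with such a count, so that members were 14 of the 33 genes that met it. By cell line, it was met by 4 of 100 members in H460 (0.0654% of all genes), 8 of 124 for H1299 (0.0876% of all genes), and 5 of 100 for A549 (0.108% of all genes). The si-MALAT1 library was the one at 0 in 15 of the 17 cases in members. It was the one at 0 in 24 of the 40 cases in all genes, which include those 17. For counting error alone, a count of 0 allows up to 3 reads in that library. How reads on shared exons were divided is not covered by this bound. Of the 14 members, 8 had no exonic base of their own, of 33 such members with 50 reads in some library, against 1 of 41 with over 10% of bases of their own. Read depth was not matched in these comparisons, with all genes or between the classes, and its part was not tested.

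The log2 fold change of the whole locus lay between -0.48 and 0.58 in these 17 cases. UBE2F-SCLY, of the NEDD8-conjugating enzyme gene UBE2F and the selenocysteine lyase gene SCLY, had 607 reads in the A549 control and 0 after si-MALAT1, and its parents summed to 1302 and 1839. In H460 the order was the reverse, with 12 and then 398 reads, and the H1299 counts were 15 and 72. CORO7-PAM16, of the genes for a Golgi coronin and a subunit of the mitochondrial import motor, had 334 and 0 reads in H1299 and 43 and 0 for A549, but 239 and 363 for H460. DNAAF4-CCPG1, of a dynein assembly factor and an ER-phagy receptor, had 393 reads in the H1299 si-MALAT1 library and was listed at 0 in the other 5 libraries. SYS1-DBNDD2 and ARPIN-AP3S2 were lower in every cell line. SYS1-DBNDD2 had 86, 100, and 53 reads in the H460, H1299, and A549 controls and 0, 15, and 0 after si-MALAT1. ARPIN-AP3S2, of a gene for an inhibitor of the Arp2/3 complex and a subunit gene of the AP-3 adaptor, had 139, 168, and 256 reads in the controls and 0, 0, and 119 after si-MALAT1. In the paired edgeR test their adjusted p-values were 0.149 for SYS1-DBNDD2 and 0.243 for ARPIN-AP3S2.

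**Figure D4:**
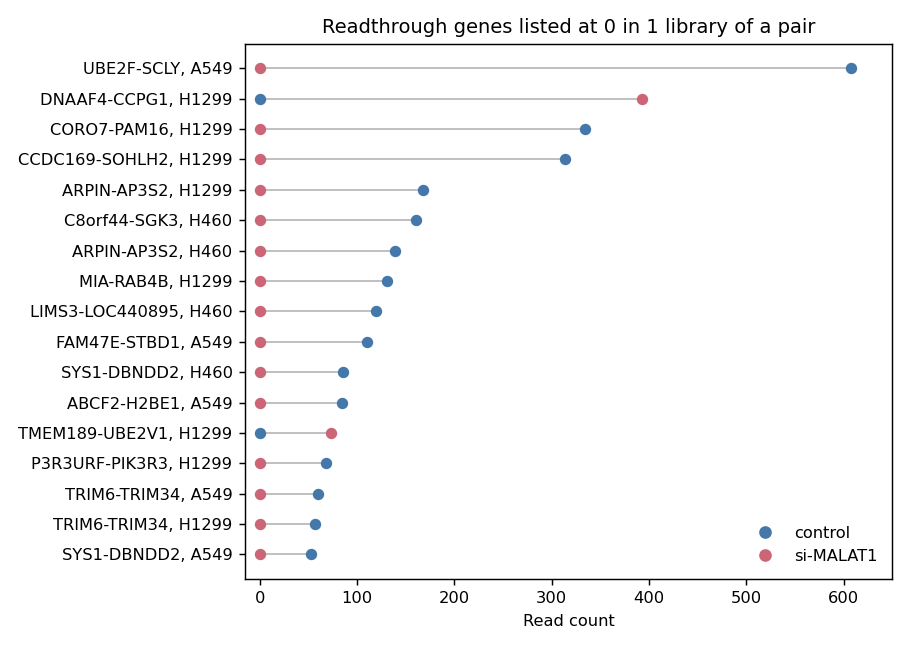
Read counts in the control (blue) and si-MALAT1 (red) library of a cell line for the 17 pairs in which a readthrough gene had at least 50 reads in one library and 0 in the other. In 15 pairs the si-MALAT1 library is at 0, and the counts of the other library reach from 53 to 607.

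Few members, but a larger share than of all genes, passed a fold change of 1.5 the same way in all 3 cell lines. Of 112 members, 5 were higher (4.46%, beside 1.19% of all genes) and 4 lower (3.57%, beside 1.28% of all genes). Another 10 were past it in all 3 cell lines with mixed directions (8.93%, beside 1.90% of all genes). In edgeR's quasi-likelihood test, with each cell line a block and Benjamini-Hochberg adjustment over 19122 genes, 0 of 131 members tested were higher (0% of all genes) and 0 lower (0.00523% of all genes) at an adjusted p under 0.05. The only gene called was MALAT1. At an unadjusted p under 0.05, 7 members were higher (7.38% of all genes) and 15 lower (7.59% of all genes). DESeq2, the alternative, called 4 members higher (4.15% of all genes) and 2 lower (4.25% of all genes) among 77 with an adjusted p, 6 in all (8.41% of all genes). At an unadjusted p under 0.05 the edgeR test held 22 members in either direction (15% of all genes).

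RPL36A-HNRNPH2 was higher after si-MALAT1 in each cell line. It joins the gene of a large-subunit ribosomal protein to that of an RNA-binding hnRNP protein, and lies at chrX:101391011-101414133 on the plus strand. Its control and si-MALAT1 counts were 238 and 1065 for H460, 117 and 300 for H1299, and 66 and 531 for A549. The 3 si-MALAT1 libraries were all above the 3 controls. RPL36A had 32817 and 32666 reads in H460, 15440 and 13087 for H1299, and 13829 and 17453 for A549, and HNRNPH2 had 4677 to 6274 reads in all libraries. The mean log2 fold change of the readthrough gene was 2.19 ± 0.69 (SD, n = 3 cell lines), while the locus log2 fold changes were 0.14, -0.02, and 0.22. Its adjusted p was 0.0734 in edgeR and 1.60e-08 in DESeq2. None of its exonic bases is its own, and a second annotated junction uses another RPL36A exon with the same HNRNPH2 exon.

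POC1B-GALNT4 joins the gene of a centriolar protein to that of an enzyme of mucin-type O-glycosylation, and lies at chr12:89519412-89526262 on the minus strand. Its read counts were 326 and 723 for H460, 658 and 1068 for H1299, and 245 and 693 for A549, control before si-MALAT1. The 3 si-MALAT1 libraries were again above all 3 controls. The log2 fold change averaged 1.14 ± 0.27 (SD, n = 3 cell lines), and the adjusted p was 0.0784 in edgeR and 1.26e-05 in DESeq2. Here the parent GALNT4 had log2 fold changes of 0.09, 1.06, and 0.93, and the locus total of 0.11, 0.63, and 0.78. The log2 fold change of the readthrough gene was above that of the locus in each cell line. A second annotated junction, across an intron of 679 bases, joins the same POC1B exon to other GALNT4 sequence.

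COMMD3-BMI1 joins COMMD3, a copper metabolism domain gene, to BMI1, the gene of a Polycomb repressive complex 1 subunit. Its counts were 204 and 402 for H460, 22 and 302 for H1299, and 301 and 624 for A549. BMI1 had 1772 and 2419 reads in H460, 3175 and 2790 for H1299, and 2218 and 2966 for A549, so that in H1299 only the readthrough gene was higher. The log2 fold change averaged 1.93 ± 1.65 (SD, n = 3 cell lines), and the adjusted p was 0.254 in edgeR and 0.0186 in DESeq2. ABHD14A-ACY1 joins ABHD14A, a hydrolase-domain gene, to ACY1, the aminoacylase that frees amino acids from their N-acyl forms. Its counts were 8 and 132 for H460, 45 and 126 for H1299, and 8 and 32 for A549. The highest control and the lowest si-MALAT1 library were close, at 35.7 and 38.1 RLE-scaled reads, with every si-MALAT1 library above every control on this scale but not in raw counts. ACY1 held 1248 to 3096 reads in all libraries. The log2 fold change averaged 2.44 ± 1.32 (SD, n = 3 cell lines), and the adjusted p was 0.157 in edgeR. SYNJ2BP-COX16, the fifth member higher in all 3 cell lines, was below a mean count of 50, with 6 and 23, 28 and 47, and 4 and 16 reads.

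SERF2-C15ORF63 was lower after si-MALAT1 in each cell line. It joins SERF2 to HYPK, the present symbol of C15ORF63, which encodes a partner of the N-terminal acetyltransferase NatA. It is annotated as a lncRNA at chr15:43791976-43802589 on the plus strand, with no exonic base of its own. Its read counts were 152 and 23 for H460, 270 and 42 for H1299, and 45 and 9 for A549. The 3 si-MALAT1 libraries were all below the 3 controls, and the mean log2 fold change of -2.49 ± 0.12 (SD, n = 3 cell lines) had little spread. SERF2 had 11201 and 14003, 13845 and 13898, and 6970 and 8420 reads, and HYPK 917 and 929, 1100 and 796, and 635 and 534. The locus log2 fold changes were 0.37, 0.08, and 0.08. The adjusted p was 0.0734 in edgeR, and DESeq2 gave none.

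LINC01297-DUXAP10-NBEAP6, a lncRNA of a pseudogene locus, had 410 and 248 reads in H460, 338 and 192 for H1299, and 806 and 518 for A549. It was lower in each cell line by nearly the same amount, -0.70 ± 0.07 on the log2 scale (SD, n = 3 cell lines). DUXAP10 had log2 fold changes of 0.36, 0.22, and 0.31 and LINC01297 at most 17 reads. The adjusted p was 0.130 in edgeR and 0.00903 in DESeq2. MMP24-AS1-EDEM2, whose parent EDEM2 acts in the disposal of misfolded glycoproteins from the ER, had 97 and 47 reads in H460, 216 and 63 for H1299, and 56 and 28 for A549. The log2 fold change averaged -1.23 ± 0.35 (SD, n = 3 cell lines), and the adjusted p was 0.161 in edgeR. EDEM2 itself had log2 fold changes of -0.18, 0.03, and -0.86. PRR5-ARHGAP8, the fourth member lower in all 3 cell lines, was below a mean count of 50, with 37 and 9, 56 and 16, and 76 and 10 reads.

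**Figure D5:**
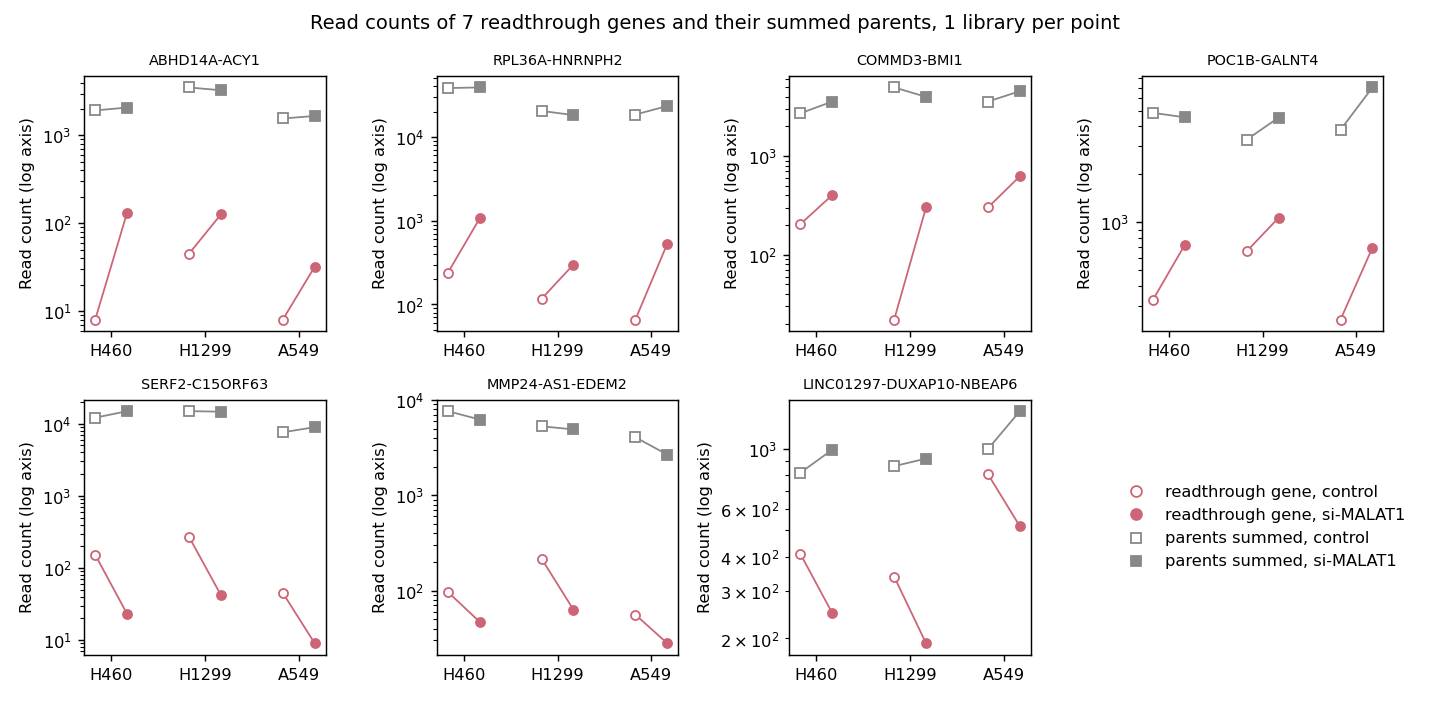
Read counts on log axes for the 7 readthrough genes past a fold change of 1.5 in the same direction in all 3 cell lines with a mean count of at least 50 (red circles) and for their summed parents (grey squares). Open symbols are control libraries, filled symbols si-MALAT1 libraries, and each line joins the pair of a cell line. RPL36A-HNRNPH2, POC1B-GALNT4, COMMD3-BMI1, and ABHD14A-ACY1 are higher in the 3 si-MALAT1 libraries, and SERF2-C15ORF63, MMP24-AS1-EDEM2, and LINC01297-DUXAP10-NBEAP6 are lower.

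None of the 6 members with the highest length-scaled levels was past a log2 fold change of 1.5 in any cell line. BLOC1S5-TXNDC5 had the highest mean TPM, 52.1, and joins a gene of lysosome-related organelle biogenesis to that of a protein disulfide isomerase of the ER. Its counts were 9402 and 12792 for H460, 5323 and 5233 for H1299, and 6287 and 11639 for A549, while those of TXNDC5 were 19176 and 17349, 15068 and 13411, and 8349 and 6619. Its share of the locus reads was 32.1% and 41.5% for H460, 24.2% and 25.8% for H1299, and 41.1% and 61.4% for A549, with exact 95% Clopper-Pearson bounds within 0.784 percentage points for counting error alone. The share was higher after si-MALAT1 in each cell line, with an adjusted p of 0.259 for the readthrough gene in edgeR. Its description marks it as an NMD candidate.

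NME1-NME2 had a mean TPM of 47.6 and joins the genes of the nucleoside diphosphate kinases NME1 and NME2. Its counts were 1648 and 1754 for H460, 5327 and 3400 for H1299, and 2062 and 1816 for A549. They were highest in H1299, whereas NME1 had its lowest counts there, 7194 and 5828. SLMO2-ATP5E, of a mitochondrial lipid transfer gene (now PRELID3B) and the gene of the ATP synthase epsilon subunit (now ATP5F1E), had a mean TPM of 36.3. Its share of the locus reads was 5.58% to 7.06% in all 6 libraries. BOLA2-SMG1P6 had a mean TPM of 17.7 and log2 fold changes of -0.25, -0.76, and -0.58, and its adjusted p was 0.161 in edgeR and 0.0302 in DESeq2. Its parent BOLA2 had log2 fold changes of -0.12, -0.70, and -0.45, and the locus lies in a repeated segment, so that its reads are uncertain. RPL17-C18orf32 had a mean TPM of 14.9 and counts of 771 and 1398, 869 and 604, and 1432 and 2715, beside 29236 to 52205 reads for RPL17.

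The following members were lower in each cell line and were named after their values were seen. TMED7-TICAM2, of a gene of the early secretory pathway and the adaptor gene of Toll-like receptor 4 signalling, had 2254 and 1490 reads for H460, 1338 and 1146 for H1299, and 612 and 370 for A549. TMED7 was higher in each, with log2 fold changes of 0.48, 0.61, and 0.51. Each pair thus had the readthrough gene lower and its upstream parent higher after si-MALAT1. NEDD8-MDP1, whose parent NEDD8 encodes a ubiquitin-like modifier, had 207 and 118, 160 and 110, and 113 and 73 reads, and its downstream parent MDP1 had log2 fold changes of -0.16, -0.60, and -0.80. RNASEK-C17orf49 had 707 and 351, 735 and 449, and 425 and 387 reads, and its parent RNASEK log2 fold changes of -0.45, -0.30, and -0.54. For these 2 members this parent was lower as well, whereas NEDD8 had log2 fold changes of 0.28, -0.10, and 0.03, and C17orf49 of 0.26, -0.01, and 0.13. The adjusted p-values in edgeR were 0.260, 0.304, and 0.213 for TMED7-TICAM2, NEDD8-MDP1, and RNASEK-C17orf49.

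Members of duplicated segments were among the most counted, and their reads are uncertain because near-identical copies exist. Those given here were named after their values were seen. PKD1P3-NPIPA1, a transcribed pseudogene of the polycystin-1 gene copies, had 2346 and 2001, 1740 and 1349, and 1292 and 1578 reads. PKD1P5-LOC105376752, of the same family, had 1660 and 1421, 1321 and 1044, and 836 and 980. Both were lower after si-MALAT1 for H460 and H1299 and higher for A549. The copies SLX1A-SULT1A3 and SLX1B-SULT1A4 differed from each other in H460, with 578 and 213 reads for the first and 311 and 309 for the second.

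The 3 members with the largest mean shares of their locus reads, among those with all parents found and a mean count of at least 50, are given here. STAG3L5P-PVRIG2P-PILRB, whose parent PILRB encodes an activating immune receptor, held 81.7% to 90.1% of the locus reads, with counts of 4430 and 3995, 6477 and 5354, and 2169 and 2353. SMURF2P1-LRRC37BP1, a transcribed pseudogene with 80.0% of its bases its own, held 91.3% to 95.5%, with counts of 1510 and 1631, 1032 and 1019, and 1298 and 1322. The mean log2 fold changes were -0.08 ± 0.06 and 0.06 ± 0.16 (SD, n = 3 cell lines). SUGT1P4-STRA6LP-CCDC180 held 73.5% to 87.4% of a locus with fewer reads, 83 to 263 for the readthrough gene. The upstream parent matched for it was SUGT1P4-STRA6LP, itself a readthrough gene, whose own parents SUGT1P4 and STRA6LP were not found and are left out of the share.

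Several members were past the log2 threshold in opposite directions in different cell lines. With 4 of 112 members (0.286% of all genes), 3 had a mean count of at least 50. TSNAX-DISC1 joins a gene of a translin partner to DISC1, a scaffold gene first found at a translocation in a family with mental illness. Its counts were 27 and 6 for H460, 72 and 145 for H1299, and 4 and 215 for A549. TSNAX had 5366 and 4299, 2386 and 1306, and 3812 and 1992 reads, lower after si-MALAT1 in each cell line. RTEL1-TNFRSF6B joins a telomere helicase gene to that of a decoy receptor for Fas ligand. Its counts were 478 and 58 for H460, 543 and 421 for H1299, and 64 and 372 for A549, and in A549 TNFRSF6B had 37 and 6 reads. TPTEP2-CSNK1E, of a pseudogene and a casein kinase gene, had 45 and 10, 120 and 346, and 87 and 65 reads, with 113 and 11 for TPTEP2 for H1299. The fourth, FKBP1A-SDCBP2, was below a mean count of 50. The adjusted p-values in edgeR were 0.660 for TSNAX-DISC1, 0.929 for RTEL1-TNFRSF6B, and 0.942 for TPTEP2-CSNK1E.

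Differences between the cell lines were tested with both libraries of a line as its samples, which differ in treatment. The edgeR joint test called 67 of 149 members (45.0%) at an adjusted p under 0.05, beside 62.9% of 21771 genes. JMJD7-PLA2G4B joins a gene of a JmjC dioxygenase to PLA2G4B. It was counted in H1299 only, with 726 reads in the control and 232 after si-MALAT1, and was listed at 0 in the other 4 libraries, although PLA2G4B had 422 to 518 reads in H460 and 187 to 194 for A549. The adjusted p of the joint test was 0.000740. ZNF625-ZNF20, of a pair of zinc finger genes, had 201 and 105 reads in H1299, 7 and 6 for A549, and 0 for H460, with an adjusted p of 0.00134. Here the parent ZNF625 was also counted in H1299 only. ANKRD20A4-ANKRD20A20P had 583 and 837 reads in H1299, 96 and 151 for A549, and 12 and 14 for H460, with an adjusted p of 0.000120, and belongs to a family of near-identical copies. LINC01297-DUXAP10-NBEAP6 was higher in A549 than in H1299, with a fitted H1299 minus A549 log2 difference of -1.95 ± 0.20 (SE) and an adjusted p of 0.000693 for this contrast.

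For no class of member did the 3 cell lines share the sign of the median. For the 26 NMD candidates with reads in all 6 libraries, the median log2 fold change was -0.39 for H460, -0.05 for H1299, and 0.31 for A549, and 10, 12, and 16 of them were higher. For the 51 protein-coding members the medians were 0.06, -0.39, and -0.25, for the 46 lncRNAs -0.15, -0.18, and 0.05, and for the 15 transcribed pseudogenes -0.15, 0.28, and 0.02. The median SD over the cell lines was 0.73, 0.71, and 0.33 in these 3 classes.

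Genes of the machinery that ends mRNAs and of the pathway that removes faulty ones were past a fold change of 1.5 in 1 of 24 and 0 to 1 of 21 cases per cell line, beside 19.8%, 23.1%, and 22.9% of all genes for H460, H1299, and A549. The lists were not matched to all genes for read depth, and the part of depth in this difference was not tested. Of 24 genes of mRNA 3′ end processing, 0 were called in edgeR at an adjusted p under 0.05, and at an unadjusted p under 0.05 there were 1 higher (7.38% of all genes) and 2 lower (7.59% of all genes), while DESeq2 called 0 higher (4.15% of all genes) and 1 lower (4.25% of all genes). The median log2 fold changes of the list were -0.03, -0.01, and -0.06 for H460, H1299, and A549. PPP1CA, a catalytic subunit of protein phosphatase 1, stood apart with counts of 6081 and 2181, 10420 and 2069, and 7709 and 1682. Its adjusted p was 0.0734 in edgeR and 2.83e-16 in DESeq2. CSTF2, a subunit of the cleavage stimulation factor, had log2 fold changes of -0.44, -0.43, and -0.13, and its paralogue CSTF2T of 0.24, 0.22, and 0.40. PCF11, a termination factor, had 0.26, 0.14, and 0.38. Of the 21 NMD genes, 0 were called in edgeR, and at an unadjusted p under 0.05 there were 1 higher and 1 lower, as in DESeq2 at an adjusted p under 0.05, beside the same shares of all genes. The median log2 fold changes of this list were -0.04, -0.03, and 0.02. PNRC2, an adaptor to the decapping enzyme, had log2 fold changes of 0.58, 0.54, and 0.86 (adjusted p = 0.107 in edgeR and 7.70e-05 in DESeq2). DHX34, a helicase that acts with UPF1, had -0.41, -0.62, and -0.48, with 0.134 in edgeR and 0.0140 in DESeq2. UPF2 had 0.13, 0.44, and 0.17, and SMG5 -0.20, -0.09, and -0.19.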

How the data were processed

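RNA-seq had been performed on total RNA after rRNA removal with a stranded kit, in 6 libraries of 3 cell lines, grouped by the labels into control and si-MALAT1. Reads were trimmed and aligned to hg38 (HISAT 2.1.0), and StringTie estimates per gene of an NCBI GRCh38 annotation were deposited by the authors as whole-number read counts, TPM, and FPKM. The deposited FPKM values were not used. The methods give StringTie 2.1.3b and the submitters' processing notes 1.3.4b. How reads on shared exons were divided between a readthrough gene and its parents, and whether strand was used, is not given in the sources used here. Reads of near-identical copies and of a gene and its antisense partner may therefore be divided differently. The 18 columns of other samples in the table were not used. One further gene is not reported here.

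Parents were matched by symbol or older symbol and had to overlap on the same strand. Junctions were read from the deposited annotation on hg38, where 99.2% of member introns began with GT and ended with AG. Within a cell line, log2 of the RLE-scaled count plus 1 was compared for genes with a read in all 6 libraries. Across the cell lines, edgeR 4.0.16 quasi-likelihood tests were fitted with TMM scaling, filterByExpr, and Benjamini-Hochberg adjustment over all genes, with the cell line as the block since both libraries come from 1 line, which left 2 residual degrees of freedom. Scripts were tested on simulated counts. DESeq2 1.42.0, other scalings, pseudocounts, filters, and leaving out a cell line or library were alternatives. Intervals and the 3 reads that a count of 0 allows cover counting error only. The members and lists were chosen with earlier results of these data known. Named members were those with a mean count of at least 50 that were past a fold change of 1.5 in 3 cell lines, had the smallest p-values, the largest locus shares, or opposite changes, and the 6 with the highest TPM. In the 2 background lists, the genes with the smallest p-values were named. All other members named in the text, including those below a mean count of 50, were named after their values were seen. R 4.3.3, Python 3.11.15, numpy 2.4.6, and pandas 2.3.3 were used.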

Additional observations from a re-analysis of the deposited data

Results flagged for a closer look

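In 3 members with a mean count of at least 50, a log2 fold change of at least 1.5 was reached upward in one cell line and downward in another. The distance between the highest and the lowest of the 3 log2 fold changes was 7.28 for TSNAX-DISC1 (A549 against H460), 5.32 for RTEL1-TNFRSF6B (A549 against H460), and 3.63 for TPTEP2-CSNK1E (H1299 against H460). With 1 library per cell line and condition, these differences between the cell lines were not tested.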

How the results depend on the processing

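The counts of members past a threshold depended on the scale and the filter, and leaving out a cell line left fewer fold changes to agree. On log2(TPM + 1), which shrinks low levels, the members past a log2 fold change of 1.5 were 3 higher and 0 lower for H460, 0 and 2 for H1299, and 1 and 0 for A549, or 2.68%, 1.79%, and 0.893% of members beside 0.129%, 0.174%, and 0.297% of all genes. Past a fold change of 1.5 there were 8 and 11, 11 and 9, and 17 and 7, or 16.96%, 17.9%, and 21.4% beside 5.83%, 10.1%, and 8.78%. With genes read in any library, the former were 20 and 25, 20 and 24, and 25 and 17, or 26.9%, 26.3%, and 25.1% of 167 members beside 13.1%, 10.95%, and 13.0% of all genes, so that the members' share stood less far above that of all genes than in the report. The latter were 39 and 43, 40 and 52, and 43 and 38, or 49.1%, 55.1%, and 48.5% beside 29.0%, 34.3%, and 30.2%. A pseudocount of 10 gave 6 higher and 5 lower past a log2 fold change of 1.5 for H460, 9 and 5 for H1299, and 8 and 4 for A549, or 9.82%, 12.5%, and 10.7% beside 0.499%, 0.628%, and 1.04%. Past a fold change of 1.5 in all 3 cell lines were 2 higher and 1 lower on log2(TPM + 1) (0.174% and 0.690% of all genes), and 5 higher and 7 lower with genes read in any library (1.26% and 1.19%). Without 1 cell line, 9 to 10 were higher and 9 to 11 lower in the remaining cell lines. The same count over all genes was not made for these, so they are not read as a result about the members. The median size of the mean difference from the parents was 0.46, and 0.41 with a pseudocount of 10, 0.27 on log2(TPM + 1), and 0.48 to 0.58 without 1 cell line. In the paired test, DESeq2 called 4 higher and 2 lower. Without the block for the cell line pairs, edgeR called 0 higher and 0 lower, and without 1 cell line 0 higher and 0 to 1 lower, the latter being CORO7-PAM16 without H460 (adjusted p = 0.0221), which had 0 reads after si-MALAT1 in the remaining lines. The adjusted p of RPL36A-HNRNPH2 ranged over the alternatives from 1.60e-08 to 1.00, that of POC1B-GALNT4 from 1.26e-05 to 1.00, and that of SERF2-C15ORF63 from 0.0595 to 1.00. Locus totals past a log2 fold change of 1.5 stayed at 0 under TMM and on log2(TPM + 1), alternatives chosen after seeing the data. Between the cell lines 55 to 76 members were called under the alternatives. In the main fit 67 of 149 (45.0%) were called, a smaller share than the 62.9% of all genes. The share of all genes under the alternatives was not counted. Low counts limit members that hold a small share of their locus.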
